A study of Homo sapiens with 4 samples.

Results

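The miR-200 family comprises hsa-miR-200b, hsa-miR-200a, hsa-miR-429, hsa-miR-200c and hsa-miR-141, and its 5 guide strands were picked by name from the 851 human miRNAs on an Agilent miRNA microarray. A guide strand is the arm of a miRNA hairpin that is usually loaded into the silencing complex, whereas the passenger strand is the opposite arm. The arrays measured total RNA from HepG2, a human hepatocellular carcinoma cell line. The 4 conditions were control at 2 h, 40 µM berberine at 2 h, control at 4 h and 40 µM berberine at 4 h, with 1 array for each, all on 1 slide read in 1 scan. Control cells received 0.08% DMSO, the solvent, and treated cells received berberine chloride, a plant alkaloid, from a stock in DMSO. All cells were the same line in the same medium, so the groups share its genetic background. The comparison asked which miRNAs change early after berberine. With 1 array per condition no difference at a single time has a replicate check, and the errors given below cover measurement on an array and not the spread between cultures.

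The miR-200 family is known for holding epithelial cells in their epithelial state. Its members repress ZEB1 and ZEB2, transcription factors that switch off E-cadherin and drive the epithelial-mesenchymal transition. ZEB1 and ZEB2 in turn bind E-box letters near the genes of the family and repress them, so that the miRNAs and their targets restrain each other. A miRNA finds its targets mainly through its seed, bases 2 to 8 from the 5′ end.

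All 5 members matched a mature sequence in RefSeq (GRCh38.p14). The sequences are shown because the seed splits the family along another line than the genome does. Each is written 5′ to 3′ with the seed in capitals.
hsa-miR-200b: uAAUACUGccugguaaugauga
hsa-miR-429: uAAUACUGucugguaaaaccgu
hsa-miR-200c: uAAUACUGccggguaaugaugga
hsa-miR-200a: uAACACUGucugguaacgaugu
hsa-miR-141: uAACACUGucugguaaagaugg
The first 3 share the seed AAUACUG and the last 2 share AACACUG. The seeds differ by 1 base, U4C from hsa-miR-200b to hsa-miR-200a, with positions counted from the 5′ end of the mature strand. Positions were compared over the 22 bases that all members have. Of these, hsa-miR-200b and hsa-miR-200c share 20, as do hsa-miR-200a and hsa-miR-141, although the partners of each pair lie on different chromosomes. The least alike are hsa-miR-429 and hsa-miR-200c, which share a seed but only 15 of 22 positions.

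In the genome the family lies in 2 clusters, both on the plus strand. In GRCh38.p14 the mature strands of hsa-miR-200b, hsa-miR-200a and hsa-miR-429 are at chr1:1167160-1167181, chr1:1167916-1167937 and chr1:1169055-1169076, within the long non-coding RNA gene MIR200BHG. Those of hsa-miR-200c and hsa-miR-141 are at chr12:6963742-6963764 and chr12:6964155-6964176, within the long non-coding RNA gene MIR200CHG. The promoter windows of these host genes were searched for the E-box letters CACCTG and their reverse complement CAGGTG, since ZEB1 and ZEB2 are known to bind such letters. A window runs from 250 bases before to 50 bases after the annotated RefSeq start, and the match below is in capitals.
MIR200BHG: aggggacaCACCTGtcgggggc
MIR200CHG: ggaggacaCACCTGtgcgcagg
The MIR200BHG window holds 2 matches and the MIR200CHG window holds 1. Of 35116 windows of the same length, 20.6% hold at least 1 match and 3.49% hold 2 or more. The arrays measured neither ZEB1 nor ZEB2.

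Feature Extraction detected 199 to 242 of the human miRNAs on an array, and 197 on all 4. Signals differed between arrays as a whole. The 75th percentile over these 197 miRNAs was 243 on control 2 h, 169 on berberine 2 h, 225 on control 4 h and 297 on berberine 4 h. No feature was saturated. Ratios below were therefore taken after subtracting this percentile on the log2 scale, unless called unscaled. Hepatocyte markers were present in these cells, with 5 of 6 detected on every array, among them the liver miRNA hsa-miR-122 at 22.4 to 39.9. On every array hsa-miR-122 lay below the median of the detected signals, which was 39.0 to 53.2. Its passenger strand hsa-miR-122* was detected on none. No muscle marker (0 of 3) or neuronal marker (0 of 2) was detected on any array. Of 6 blood markers, none was detected on the first 3 arrays, whereas hsa-miR-142-3p and hsa-miR-451, named after their values were seen, were detected on berberine 4 h with a summed signal of 11.4. Of 5 mesenchymal markers, 2 were detected on all 4 arrays, with a summed signal of 33.1 to 50.9 on the first 3 and 74.7 for 3 markers on berberine 4 h. These sums are unscaled, and like the percentile the mesenchymal sum was lowest on berberine 2 h and highest on berberine 4 h. The blood signals on berberine 4 h were 6.13 for hsa-miR-142-3p and 5.31 for hsa-miR-451. The median of the detected signals on that array was 46.1. The cells were a cultured line, and whether other cell types had a part in the ratios was not tested.

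Every member was detected on every array, at 7.83 to 14.0 times its error. The total signal of hsa-miR-200b was 371 ± 28.3 on control 2 h, 251 ± 19.3 on berberine 2 h, 347 ± 26.3 on control 4 h and 480 ± 36.0 on berberine 4 h, where ± is the Feature Extraction error. The signal of its cluster neighbour hsa-miR-200a was 180 ± 14.8, 137 ± 11.4, 151 ± 12.4 and 205 ± 16.8 in the same order. That of hsa-miR-429, the last member of the chromosome 1 cluster, was 126 ± 9.04, 83.2 ± 6.30, 113 ± 8.26 and 159 ± 11.4. These 3 miRNAs ran in the same order over the arrays, with berberine 4 h highest and berberine 2 h lowest. On chromosome 12, hsa-miR-200c had signals of 32.6 ± 3.45, 19.9 ± 2.55, 28.3 ± 3.21 and 42.9 ± 4.26. The signals of hsa-miR-141 were 49.1 ± 4.05, 33.0 ± 3.38, 44.3 ± 4.02 and 62.6 ± 5.09. Both again ran in that order. Probes of different miRNAs differ in brightness, so the signals give no ranking of the members by abundance.

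**Figure D1:**
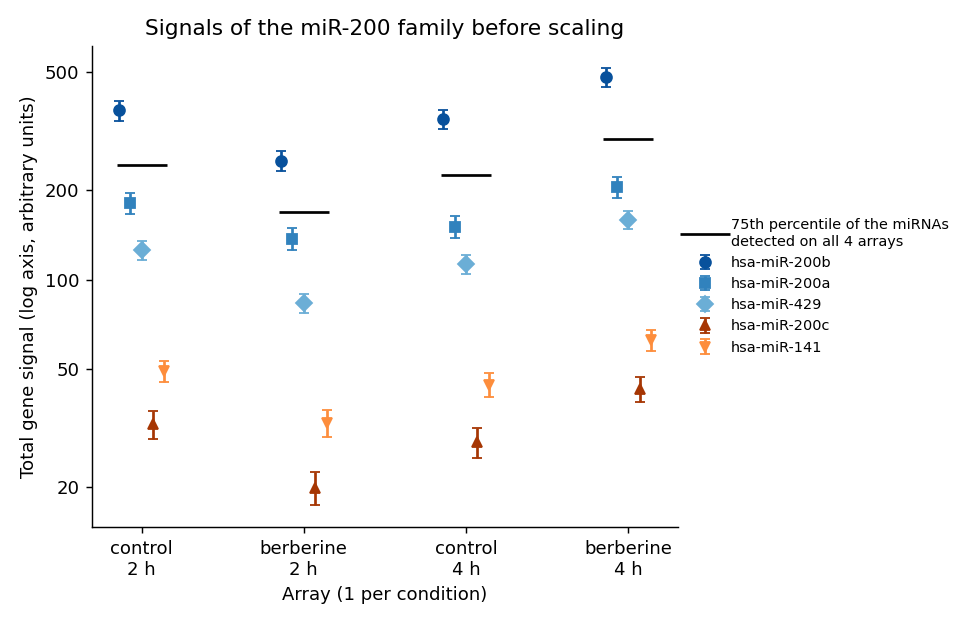
Total gene signal of the 5 members (log axis, arbitrary units) on the 4 arrays, with bars for the Feature Extraction error and a black dash for the 75th percentile of the 197 miRNAs detected on all arrays. The members move up and down with the percentile, which runs from 169 on berberine 2 h to 297 on berberine 4 h.

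The order before scaling was thus the same for all 5 members and was also that of the percentile. Between control 2 h and control 4 h, neighbours in this order, no member differed by more than 1.96 errors. Berberine 4 h lay beyond that margin above control 2 h for 3 members, and control 4 h above berberine 2 h for 4 members, hsa-miR-200a being the exception. The highest array stood above the lowest by 0.58 on the log2 scale for hsa-miR-200a and by 0.92 to 1.11 for the others. After scaling, the highest and the lowest array were 0.11 to 0.29 apart. No pair of neighbours, and no highest and lowest array, then differed by more than 1.96 errors for any member. The scaled order was no longer shared: berberine 4 h was highest for 4 members, but berberine 2 h was highest and control 4 h lowest for hsa-miR-200a.

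At 2 h the family did not differ between berberine and control beyond its measurement error. The scaled log2 ratio of berberine over control was -0.04 ± 0.16 (SE from the array errors) for hsa-miR-200b, or 0.973-fold with a 95% measurement range of 0.787 to 1.20. It was 0.13 ± 0.17 for hsa-miR-200a, or 1.09-fold with a range of 0.871 to 1.38. For hsa-miR-429 it was -0.07 ± 0.15, or 0.953-fold (0.777 to 1.17). Only hsa-miR-200a among the 5 had a ratio above 1. On chromosome 12 the ratio of hsa-miR-200c was -0.18 ± 0.24, or 0.881-fold (0.636 to 1.22). That of hsa-miR-141 was -0.05 ± 0.19, or 0.967-fold (0.747 to 1.25). No member passed 2-fold, the threshold in the study's methods, against 1.02% of the 197 miRNAs with a ratio. No member lay beyond 1.96 errors of no change, against 9.14% of these miRNAs. The range of every member was wholly inside 2-fold, as it was for 86.8% of these miRNAs, so the share was near that of all miRNAs with a ratio.

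At 4 h the ratios were again close to 1. The scaled log2 ratio was 0.07 ± 0.15 for hsa-miR-200b, or 1.05-fold with a range of 0.853 to 1.30. It was 0.05 ± 0.17 for hsa-miR-200a, or 1.03-fold (0.823 to 1.30). For hsa-miR-429 it was 0.10 ± 0.15, or 1.07-fold (0.877 to 1.31). The chromosome 1 members were therefore all within 1.96 errors of no change. The ratio of hsa-miR-200c was 0.20 ± 0.22, or 1.15-fold (0.856 to 1.54). That of hsa-miR-141 was 0.10 ± 0.18, or 1.07-fold (0.844 to 1.36). No member passed 2-fold, against 0.917% of 218 miRNAs, and none lay beyond 1.96 errors, against 11.5%. All 5 ranges were wholly inside 2-fold, as were 79.4% of those of the 218 miRNAs. All 5 log2 ratios were above 0, as was the median of the other 213 miRNAs (0.11), and with scaling to the median of the array the family's median was -0.072. The family's median minus that of the other miRNAs, which no scaling by 1 factor per array changes, was -0.03 at 2 h and -0.01 at 4 h.

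The control arrays show how far 2 arrays without berberine lay apart for the same miRNAs, although time and array cannot be told apart. The log2 ratio of control 4 h over control 2 h was 0.01 ± 0.15 for hsa-miR-200b, -0.15 ± 0.17 for hsa-miR-200a and -0.05 ± 0.15 for hsa-miR-429. It was -0.09 ± 0.22 for hsa-miR-200c and -0.04 ± 0.18 for hsa-miR-141. Again no member passed 2-fold (2.28% of 219 miRNAs did) or lay beyond 1.96 errors (6.85% did). The members' ratios were thus -0.18 to 0.13 at 2 h and 0.05 to 0.20 at 4 h under berberine, beside -0.15 to 0.01 for the control arrays.

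**Figure D2:**
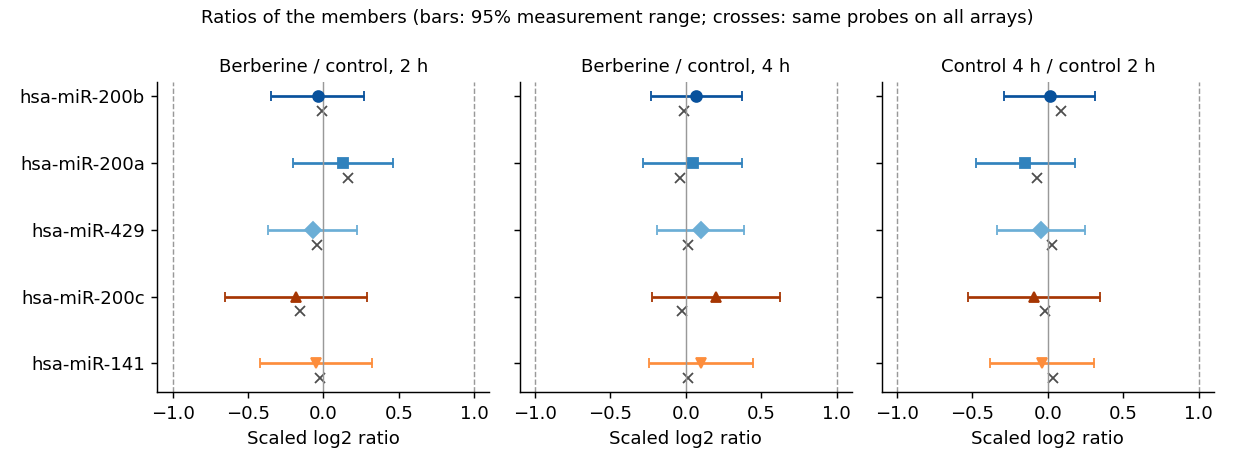
Scaled log2 ratios of the 5 members for berberine over control at 2 h and 4 h and for the control arrays, with 95% measurement ranges as bars, 2-fold as dashed lines and crosses for the ratio over the probes detected on all 4 arrays. Every range includes 0 and lies inside 2-fold, and the crosses run from -0.15 for hsa-miR-200c to 0.16 for hsa-miR-200a, both at 2 h. The crosses were scaled by a percentile retaken from the sums over these probes.

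**Figure D3:**
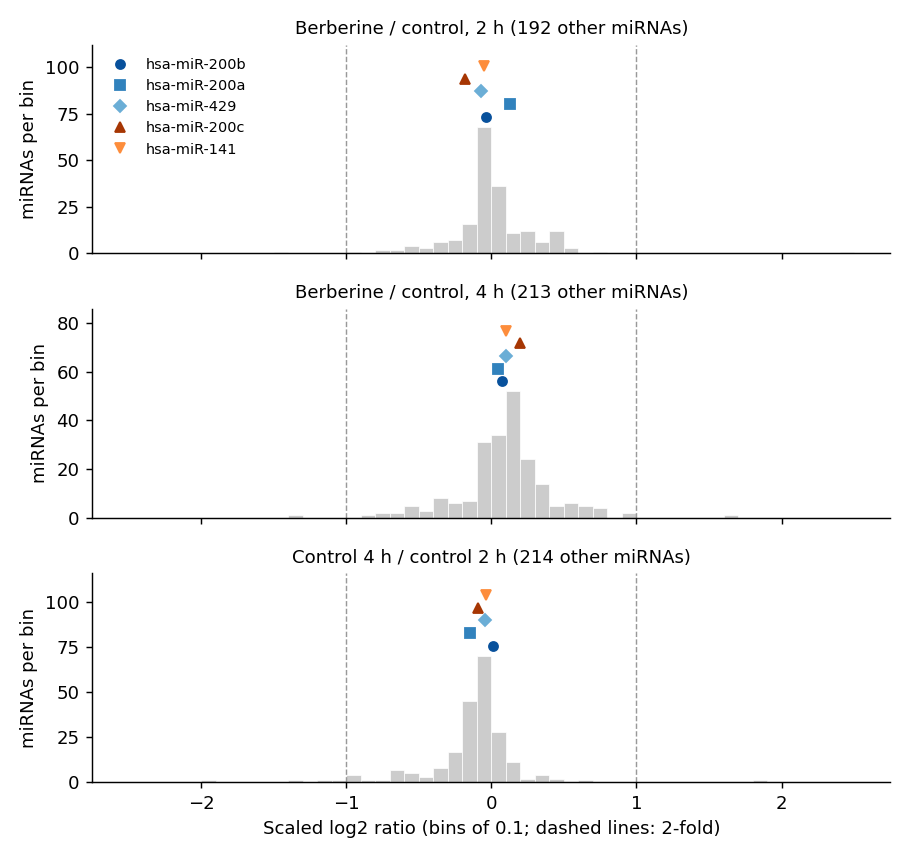
Scaled log2 ratios of the other miRNAs in bins of 0.1 (grey bars), with the members as coloured symbols above them at heights that carry no value, for 192, 213 and 214 other miRNAs from top to bottom. The members sit over the middle of each distribution, between -0.18 and 0.20.

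Over both times a limma fit with treatment and time point gave log2 differences of 0.01 to 0.09 for the members, with SE of 0.21. Benjamini-Hochberg adjusted p in limma was 0.997 for each member, and the lowest unadjusted p in limma was 0.668. No member was called, against 0.508% of 197 miRNAs (1 miRNA). None of the members had an unadjusted p under 0.05 either, against 9 of all 197. The SE and p rest mostly on a variance pooled over the 197 miRNAs (54.2 prior degrees of freedom), not on each member's own spread. The 2 time points stand in for replicates in this fit, which leaves 1 residual degree of freedom, so it bears only on a change shared by both times. Nor does it show that the levels were equal.

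The clusters were compared within each pair of arrays, where the scaling cancels. At 2 h the mean log2 ratio was 0.01 for the chromosome 1 cluster and -0.12 for the chromosome 12 cluster, a difference of 0.12 ± 0.18 with a range of -0.23 to 0.47. At 4 h the means were 0.07 and 0.15, and the difference was -0.08 ± 0.17 (-0.40 to 0.25). Between the controls the difference was 0.00 ± 0.17 (-0.33 to 0.33). The clusters therefore did not differ in their response beyond the measurement error, and the sign of the small difference was not the same at both times. These signs depend on the processing. Over the probes detected on all 4 arrays the difference at 4 h was -0.01. With normexp background correction both signs turned, to -0.17 at 2 h and 0.19 at 4 h. The seed groups did not differ beyond the error either. The mean ratio of the AAUACUG members minus that of the AACACUG members was -0.14 ± 0.17 at 2 h, with a range of -0.46 to 0.19. It was 0.05 ± 0.16 both at 4 h and for the control arrays, with a range of -0.26 to 0.36 in each. These ranges do not show that the clusters or the seed groups responded alike.

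Among the members hsa-miR-200a stood furthest from its relatives at 2 h. Its log2 ratio there exceeded the mean of the other 4 by 0.22 ± 0.19 (-0.16 to 0.59), whereas it lay at -0.07 ± 0.19 relative to them at 4 h. For the control arrays this value was -0.11 ± 0.19. The difference at 2 h was thus within 1.96 errors. The next furthest at 2 h was hsa-miR-200c, at -0.18 ± 0.25 relative to the others.

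Each member has 2 probes with 8 spots each on every array, which gives a finer but narrower error. Over the 37 detected combinations of probe and array, 50 of 296 spots were flagged as outliers. Flagged spots were left out of spot means, spreads and spot errors. Between the remaining spots of these probes, the coefficient of variation was 0.838% to 30.5% with a median of 4.81%. The Feature Extraction error of these probes was never under 10.0% of the signal, a floor that lies above the median spread between spots. Both probes of hsa-miR-200a had a scaled log2 ratio above 0 at 2 h, 0.11 ± 0.02 and 0.10 ± 0.04 (SE over spots), and one below 0 between the controls, -0.16 ± 0.03 and -0.13 ± 0.03. For the first of these probes only 4 of the 8 spots on berberine 2 h were left, and they gave the value of 0.838%. At 2 h the 7 probes of the other members detected on both arrays had ratios of -0.20 to -0.04. At 4 h all 9 such probes were between 0.05 and 0.16. Beyond 1.96 spot errors were 6 of 9 at 2 h, 6 of 9 at 4 h and 3 of 9 between the controls. The share over all probes of the array was not computed, so these counts are no result about the members. The sign at 4 h rests on the scaling, as for the family's median. Spot errors leave out what differs between arrays, and the probes of the control pair ran from -0.17 to 0.05 without berberine.

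**Figure D4:**
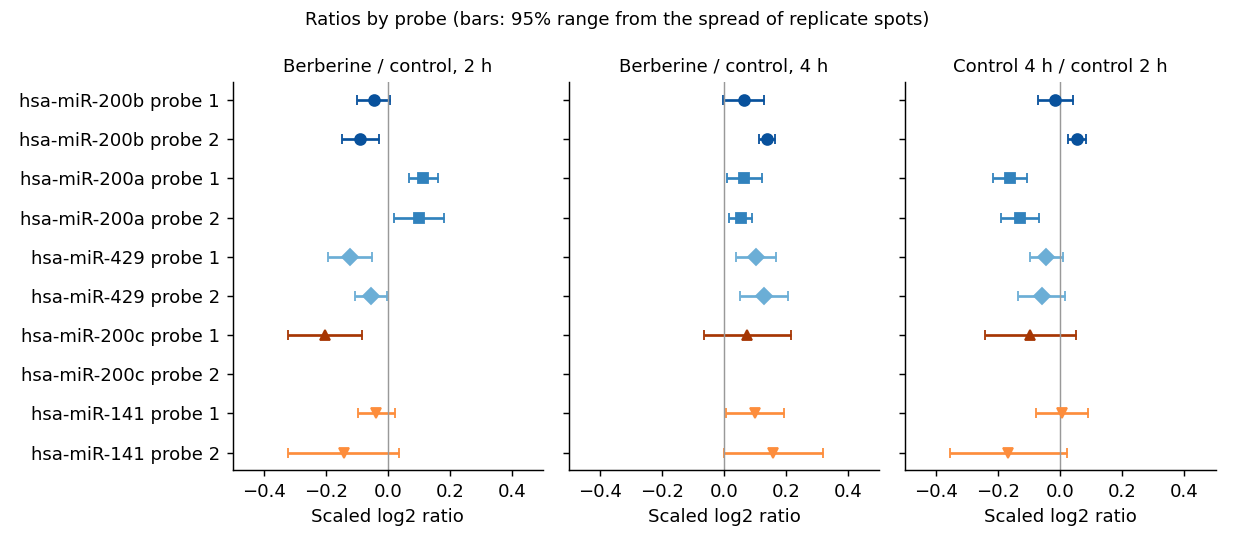
Scaled log2 ratio of each probe detected on both arrays, for berberine over control at 2 h and 4 h and for the control arrays, with bars of 1.96 standard errors of the mean over replicate spots on either side. The probes of hsa-miR-200a lie to the right of all others at 2 h (0.11 and 0.10) and on the left side between the controls (-0.16 and -0.13). Spots flagged as outliers were left out.

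The largest ratio of any member at 4 h rested on a probe that was counted on only 1 array. The second probe of hsa-miR-200c had a signal of 2.20 ± 1.14 on control 2 h, 2.12 ± 1.59 on berberine 2 h and 1.84 ± 1.49 on control 4 h, below 3 times its error, and so was left out of the totals. On berberine 4 h it had 4.03 ± 1.25, above that limit, and was added. The first probe alone gave a log2 ratio of 0.07 ± 0.07 (SE over spots) at 4 h in place of 0.20. Summed over the probes detected on all 4 arrays, with the percentile retaken from these sums, hsa-miR-200c was at -0.03 at 4 h. The 5 members were then between -0.04 and 0.02. The other members lost no probe in these sums, yet hsa-miR-200b moved from 0.07 to -0.01 and hsa-miR-429 from 0.10 to 0.02. Part of the shift of hsa-miR-200c thus came with the scaling and not with its second probe.

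The passenger strands were near the limit of detection. Of the 4 on the array, hsa-miR-200a*, hsa-miR-200c* and hsa-miR-141* were detected on no array. Only hsa-miR-200b* was detected, at 1.82 ± 0.595 on control 2 h and 1.98 ± 0.624 on berberine 4 h, where the lowest detected signal of any human miRNA was 1.79 and 1.98. The probe behind both values had 2.03 ± 0.771 on control 4 h and 1.15 ± 0.798 on berberine 2 h, each below 3 times its error. The strand was therefore detected once in a control and once under berberine, and no ratio could be formed at either time.

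Other miRNAs described as acting with or against the family in the epithelial-mesenchymal transition also stayed inside 2-fold, where a ratio could be formed. In each of the 2 lists below, 1 miRNA was detected on berberine 4 h only and had no ratio. Of 18 further miRNAs described as restraining the transition, 13 were detected on all 4 arrays. None of these passed 2-fold at either time, against 1.02% at 2 h and 0.917% at 4 h of all miRNAs with a ratio. Their median log2 ratio was -0.05 at 2 h and 0.15 at 4 h, beside -0.02 and 0.11 over all miRNAs with a ratio. The largest ratio of this list was that of hsa-miR-182, at -0.42 ± 0.29 at 2 h and 0.37 ± 0.24 at 4 h, both within 1.96 errors. At 4 h 2 of the 13 lay beyond 1.96 errors of no change, against 11.5% of all miRNAs with a ratio, and at 2 h 0 of 13 against 9.14%. These were hsa-miR-30b at 0.31 ± 0.14 and hsa-miR-194 at 0.32 ± 0.16, the former named after its values were seen. The epithelial hsa-miR-203 and hsa-miR-205 were detected on no array, so the 5 members were the only epithelial markers of 7 that were seen. Of 16 miRNAs described as high in mesenchymal cells or as favouring the transition, 11 were detected on all 4 arrays. None of the 11 passed 2-fold, beside the same low shares of all miRNAs with a ratio. The medians of the 11 were -0.06 and 0.11. The largest was hsa-miR-10b at 2 h, at -0.13 ± 0.15, and hsa-miR-125b at 4 h, at 0.49 ± 0.21, and at 0.20 over the probes detected on all arrays. At 4 h 2 of the 11, hsa-miR-125b and hsa-miR-27a, lay beyond 1.96 errors of no change, against 11.5% of all miRNAs with a ratio. At 2 h none did, against 9.14%. The ratio of hsa-miR-27a, named after its values were seen, was 0.38 ± 0.16, and 0.29 over the probes detected on all arrays. The hepatocyte markers, of which hsa-miR-192 and hsa-miR-194 are also on the restraining list, had medians of -0.05 and 0.15 over 5 miRNAs. Their largest ratios were -0.10 ± 0.15 for hsa-miR-192 at 2 h and 0.32 ± 0.16 for hsa-miR-194 at 4 h, the latter at 0.24 over the probes detected on all arrays. Values over these probes also carry a retaken scaling percentile, so such shifts do not come from probes alone. The mesenchymal markers had only 2 ratios at each time, the largest being -0.12 ± 0.24 for hsa-miR-145 at 2 h and 0.11 ± 0.23 for hsa-miR-199a-3p at 4 h. The lists thus lay near the median of the array at both times, as the family did.

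**Figure D5:**
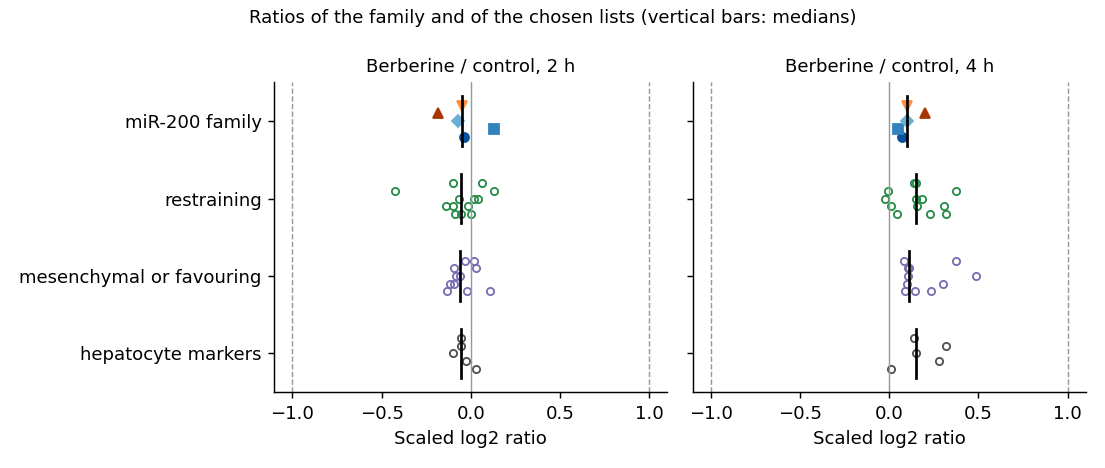
Scaled log2 ratios of berberine over control at 2 h and 4 h for the 5 members, for 13 further miRNAs described as restraining the transition, for 11 described as mesenchymal or favouring it and for 5 hepatocyte markers, each symbol being 1 miRNA and each vertical bar a median. The 4 medians are -0.06 to -0.05 at 2 h and 0.10 to 0.15 at 4 h, and no symbol reaches the dashed lines at 2-fold.

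The profile of the family over the 4 arrays, as the mean of its members' scaled log2 signals each centred on its own mean, was 0.02 on control 2 h, -0.03 on berberine 2 h, -0.05 on control 4 h and 0.06 on berberine 4 h. The miRNAs nearest to this profile by root mean square difference were hsa-miR-425 at 0.0155, hsa-miR-15a at 0.0168 and hsa-miR-25 at 0.0177. The median of the 192 miRNAs compared was 0.0914. The members themselves were at 0.0131 for hsa-miR-141, 0.0170 for hsa-miR-429, 0.0304 for hsa-miR-200b, 0.0758 for hsa-miR-200c and 0.119 for hsa-miR-200a. The profile is nearly flat and rests on 4 arrays, so these distances are a description only.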

How the data were processed

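Per the file headers, the arrays were read with Feature Extraction 10.7.3.1 (design annotated on hg18). The authors deposited background-subtracted intensity values for spots, probes and miRNAs, not scaled between arrays, with an error and a detection call. A miRNA's total signal is the sum of its probes above 3 times their error. This held for 100% of detected totals within 1%, and undetected miRNAs are listed at 0.1. The median local background was 24 to 28. Precision is limited by having so few arrays. A second deposited table, which holds only the authors' own ratios, was not used.

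Here total signals of human miRNAs were log2-transformed and scaled by subtracting, on each array, the 75th percentile of the 197 miRNAs detected on all 4. Ratios were formed where both arrays detected the miRNA. Their SE was propagated from the Feature Extraction errors, and 95% ranges are 1.96 SE. limma 3.58.1 in R 4.3.3 was fitted to the 197 miRNAs with treatment and time point, threshold 0.05 after Benjamini-Hochberg adjustment, and was tested on simulated data. Figures and tables were made with Python 3.11.15, numpy 2.4.6, pandas 2.3.3 and matplotlib 3.10.9.

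The members and the lists were chosen with earlier results of these data known. Named miRNAs were the members, their passenger strands, any list member past 2-fold or else the one with the largest absolute ratio, and the 3 nearest to the family's profile. Members' mature sequences, host genes and promoter windows are from RefSeq (GRCh38.p14). The alternatives were other scalings, probe summaries, normexp with an offset of 50 on median spot signals, filters on dim miRNAs, a 1.5-fold threshold and other limma fits. Each group has 1 array, so nothing separates biological from technical spread.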

Additional observations from a re-analysis of the deposited data

Results flagged for a closer look

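For 4 members the ratio of berberine over control lay below 1 at 2 h and above 1 at 4 h. The median log2 ratio of the other miRNAs changed sign as well, from -0.02 at 2 h to 0.11 at 4 h. The log2 ratio at 4 h minus that at 2 h was 0.11 ± 0.22 (propagated measurement error) for hsa-miR-200b, 0.17 ± 0.21 for hsa-miR-429, 0.38 ± 0.32 for hsa-miR-200c and 0.15 ± 0.26 for hsa-miR-141. This difference was not tested because each condition has 1 array, and each value is within 1.96 of its errors. Over the probes detected on all 4 arrays, with the scaling percentile retaken from their sums, these differences were 0.00, 0.06, 0.13 and 0.04. There hsa-miR-200b (-0.01 and -0.01) and hsa-miR-200c (-0.15 and -0.03) lay below 0 at both times. The change of sign remained for hsa-miR-429 (-0.04 and 0.02) and hsa-miR-141 (-0.02 and 0.02). With scaling to the median, only hsa-miR-200c of these 4 changed sign, from -0.20 to 0.03. For hsa-miR-200b, hsa-miR-429 and hsa-miR-141 every probe was detected on all 4 arrays. Their lower differences over these probes therefore came with the changed scaling and not with a probe left out. For hsa-miR-200a the ratio was above 1 at both times, with a difference of -0.08 ± 0.24.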

How the results depend on the processing

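The side of the 2-fold threshold was the same for all members under every alternative but 1, the scaling to the 75th percentile of all human miRNAs, detected or not. That percentile falls on the listed value of undetected miRNAs, 0.1, on berberine 2 h, and it put all 5 members past 2-fold at 2 h with a median log2 ratio of 5.06. With it the median was -0.31 at 4 h and 0.46 between the controls, beside -0.30 and 0.42 for the other miRNAs. Without scaling the family's median was -0.57 at 2 h and 0.50 at 4 h, while the median of all miRNAs was -0.55 and 0.51. Scaling to the median gave -0.072 at 4 h and 0.16 between the controls, where the median of the other miRNAs was -0.06 and 0.13. With normexp the family's median was -0.15 at 4 h and that of the other miRNAs was -0.26. The causes were not tested. The other 119 values of the family's medians, counts, cluster and seed-group differences and limma calls moved by less than the error or made the same call. Some of the 119 could not move. A scaling by 1 factor per array cancels in the cluster and seed-group differences. Every member was detected on all 4 arrays, so filters on detection changed nothing. Of the members' single ratios 135 stayed in this sense and 25 moved. The 8 alternative limma fits, which include leaving out each array in turn without the time point, the lone array of a treatment being assumed to vary like the others, called 0 members, with a lowest adjusted p of 0.675 to 1 among the members. The deposited ratio table was not run as an alternative. Treated and control arrays are paired by time in limma through the time point term, and leaving that term out also gave 0 called members. Dim signals limit hsa-miR-200c most, at 7.83 times its error on berberine 2 h.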
